A study of Mus musculus with 20 samples.

Results

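The genes described are 9 members of the pathway that links calcium entry to gene transcription in neurons: the kinase subunits Camk2a, Camk2b, Camk2d, Camk2g, Camk4 and Camk1g, and the transcription regulators Creb1, Crem and Crebbp. They were taken by gene symbol, as the probes that the array files name for one of the 9 and that are not control spots. This gave 24 probes out of 41174, and all 9 genes were among the 19345 genes tested. The cultures were dissociated mouse hippocampal neurons on day 21 in vitro, exposed for 24 h to 100 µM AP5, 100 nM NVP-AAM077 (NVP below), 1 µM Ro25-4891 (Ro25 below), or vehicle (control). Each of the 4 groups had 5 samples, and each sample was hybridised in Cy5 on a 2-colour array against a universal mouse reference RNA in Cy3, so every level below is a log2 ratio of sample over that reference. The sources used here give no genotype, strain or age of the animals. They also do not say whether the 5 samples of a group came from separate cultures. The p-values rest on the spread among samples within groups, pooled over the 4 groups, and part or all of that spread could be technical.

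Calcium that enters through NMDA receptors binds calmodulin, and calcium-loaded calmodulin switches on a family of protein kinases. CaMKII, a holoenzyme built from the products of Camk2a, Camk2b, Camk2d and Camk2g, acts mainly at synapses, whereas CaMKIV, the product of Camk4, is enriched in the nucleus and is itself activated by an upstream kinase, CaMKK. CaMKIV phosphorylates CREB, the product of Creb1, which then recruits the coactivator CBP, the product of Crebbp, to target genes such as Fos, Arc and Bdnf. AP5 is a competitive NMDA receptor antagonist, and NVP-AAM077 is an NMDA receptor antagonist described as preferring receptors that hold the GluN2A subunit.

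Across the 9 genes, AP5 was accompanied by a higher ratio of Camk2g and a lower ratio of Camk4, and the other 7 did not pass the test against control. With NVP or Ro25, 0 of the 9 passed. The comparisons came from limma, fitted over all 20 arrays and all genes with Benjamini-Hochberg adjustment and a threshold of 0.05. Against control, the 2 of 9 members called with AP5 stood beside 6.12% of all genes tested, of which 2.53% were higher and 3.59% lower. The median difference of the 9 was 0.0022 on the log2 scale with AP5, beside -0.012 over all genes, and the median absolute difference was 0.17, beside 0.093 over all genes.

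**Figure D1:**
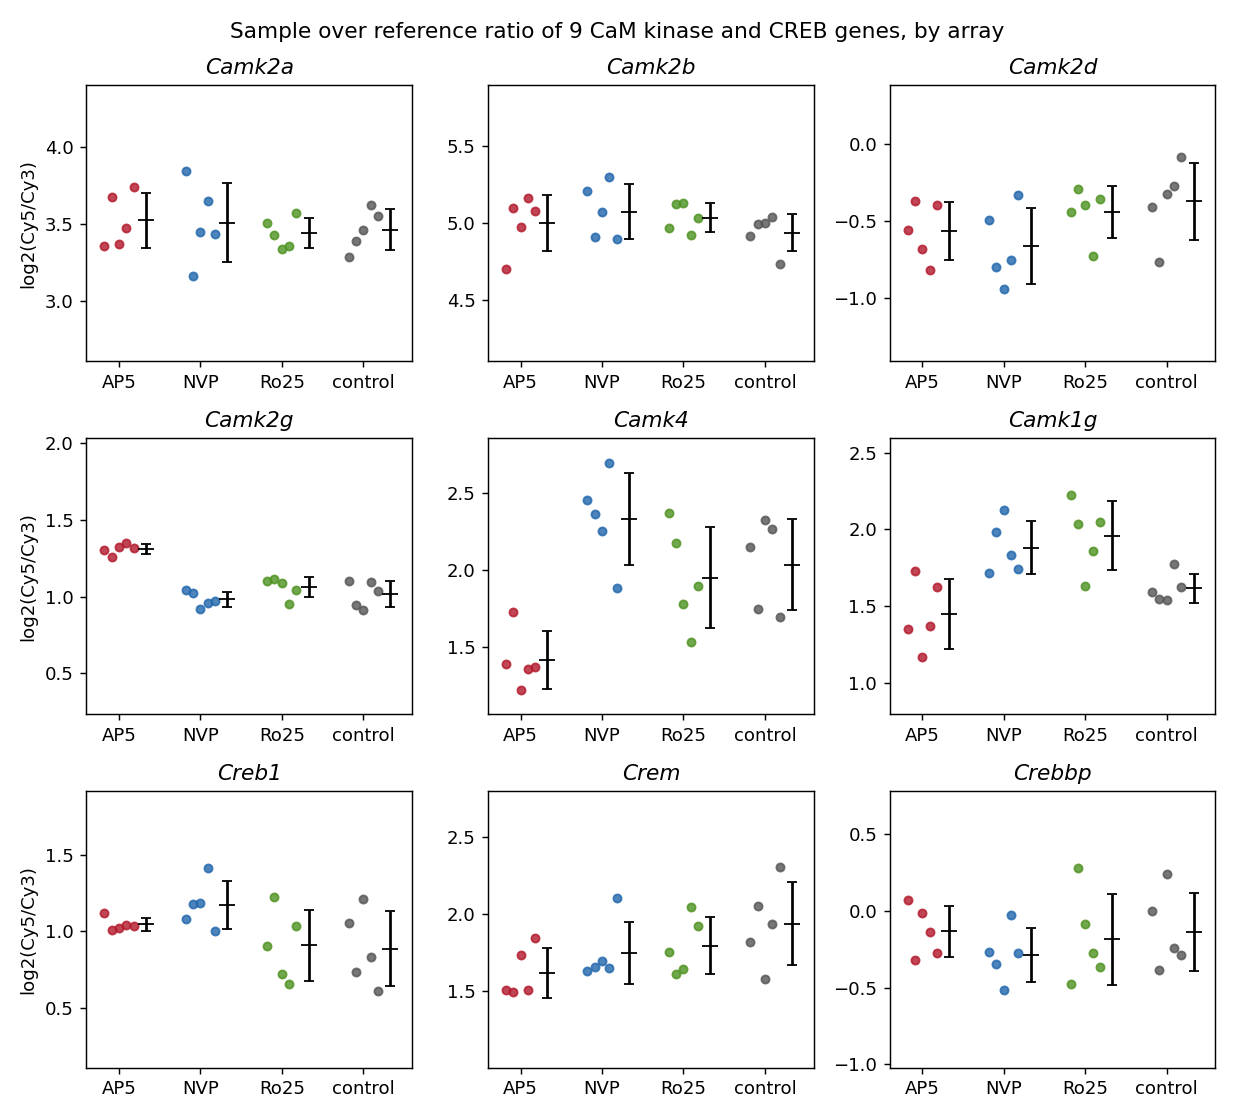
Log2(Cy5/Cy3) of each of the 9 genes on each array (points), read from the brightest probe, with the group mean and SD (black, n = 5 arrays); the groups run AP5, NVP, Ro25 and control, and every panel spans the same height on the log2 axis. The 5 AP5 arrays lie above the other 15 for Camk2g, between 1.26 and 1.35, and low for Camk4, between 1.22 and 1.73.

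All chosen probes were well above background in the sample channel on 20 of 20 arrays. Pairs of arrays of a group correlated at 0.971 to 0.993 over all genes (40 pairs). Of the pan-neuronal markers, 16 of 16 were tested, with mean log2 ratios per array of 4.05 to 4.81 with AP5 and 4.43 to 4.83 in control, as the neuronal label calls for. Astrocyte markers were above the reference RNA as well, with 13 of 13 tested and means per array of 3.00 to 4.38 with AP5 and 3.48 to 4.08 in control. Of the microglia markers 6 of 10 were tested, with means of -1.87 to -1.78 with AP5 and -1.94 to -1.77 in control. Array AP5 1 stood apart, with the lowest pan-neuronal mean (4.05) and the lowest astrocyte mean (3.00) of all 20 arrays. It was also lowest for excitatory (2.16), inhibitory (2.60) and oligodendrocyte (1.79) markers, but not for microglia (-1.82) or fibroblast (-4.38) markers. In bulk RNA, fewer cells of a type and less RNA per cell cannot be told apart. The arrays lay on 7 slides, and no slide held both an AP5 and a control array. They were scanned on 3 days: 17 arrays on the first, AP5 1 and Ro25 2 on the second, and AP5 3 on the third.

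Camk2g encodes the gamma subunit of CaMKII, known in cultured neurons to carry calmodulin towards the nucleus. Its log2 ratios were 1.30, 1.26, 1.32, 1.35 and 1.32 on the AP5 arrays, 1.04, 1.02, 0.92, 0.95 and 0.97 on the NVP arrays, 1.10, 1.11, 1.09, 0.95 and 1.04 on the Ro25 arrays, and 1.10, 0.94, 0.92, 1.10 and 1.03 on the control arrays. The lowest AP5 array was above the highest array of any other group, and the other 3 groups overlapped. The group means were 1.31 ± 0.033 with AP5, 0.98 ± 0.051 with NVP, 1.06 ± 0.066 with Ro25 and 1.02 ± 0.086 in control (SD, n = 5 each). AP5 exceeded control by 0.29 on the log2 scale (SE 0.053; 1.22-fold; limma adjusted p = 0.00157), a difference larger than the spread of either group.

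The same gene was also higher with AP5 than with the other antagonists. The difference was 0.33 from NVP (SE 0.053, limma adjusted p = 0.000607) and 0.25 from Ro25 (limma adjusted p = 0.00926). From control, NVP differed by -0.038 (95% interval -0.15 to 0.072) and Ro25 by 0.042 (95% interval -0.068 to 0.15). In order of mean the groups ran AP5, Ro25, control and NVP, and only the first step lay beyond the overlap of neighbouring groups. Without array AP5 1 the AP5 to control difference was 0.29 (limma adjusted p = 0.00332), and on the first scan day alone it was 0.29 (limma adjusted p = 0.0127). With slide as a fixed block, which joins AP5 to control only through the other groups, the difference was 0.34 but did not pass (limma adjusted p = 0.26), and with arrays centred on their median in place of loess it was 0.44 (limma adjusted p = 0.731). In every comparison with control, the slide block rests on array control 3 alone, because the other control arrays shared no slide with another group. Against Ro25 the call was lost on the first scan day alone (0.26, limma adjusted p = 0.0613) and with only the 2 groups fitted (0.25, limma adjusted p = 0.0974). The slide block (0.22) and median centring (0.38) lost it as well. Within slide 2 the single AP5 array exceeded the mean of 3 NVP arrays by 0.35, and within slide 6 the AP5 array exceeded the Ro25 array by 0.19.

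Camk4, the nuclear kinase that phosphorylates CREB, moved the other way. Log2 ratios were 1.39, 1.73, 1.22, 1.35 and 1.37 on the AP5 arrays, 2.46, 2.36, 2.25, 2.70 and 1.88 on the NVP arrays, 2.37, 2.17, 1.78, 1.53 and 1.89 on the Ro25 arrays, and 2.15, 1.74, 2.33, 2.26 and 1.69 on the control arrays. All 5 AP5 arrays were below the control mean, and array AP5 2 (1.73) reached into the control range, where the lowest array was at 1.69. Means were 1.41 ± 0.188 with AP5, 2.33 ± 0.299 with NVP, 1.95 ± 0.33 with Ro25 and 2.03 ± 0.297 in control (SD, n = 5 each). AP5 was lower than control by a log2 difference of -0.62 (SE 0.166; 1.54-fold lower; limma adjusted p = 0.0281).

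The second Camk4 probe of the array files gave the same direction. Its log2 ratios were 2.15, 2.51, 3.20, 2.79 and 2.61 on the AP5 arrays, and 3.54, 3.13, 3.58, 3.59 and 3.06 on the control arrays. Only array AP5 3 reached the control range. Fitted probe by probe, 5.06% of 28498 probes were called between AP5 and control, and both Camk4 probes were among them, at -0.62 (limma adjusted p = 0.031) and -0.73 (limma adjusted p = 0.025). One more probe, whose name in the files is an older synonym of Camk4, fell outside the naming rule and was not used.

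Where 1 array was left out, the Camk2g call remained in 10 of 10 fits and the Camk4 call in 4 of 10. The Camk4 call was lost without AP5 3, AP5 4, AP5 5, control 1, control 3 or control 4, each left out alone, with log2 differences of -0.71 to -0.55 over the 10 fits that left out 1 array and limma adjusted p values of 0.0182 to 0.0846. On the first scan day alone the difference was -0.55 (limma adjusted p = 0.142). With slide as a fixed block it was -1.13 (limma adjusted p = 0.237), with median centring -0.54 (limma adjusted p = 0.653) and from the scanner's processed signals -0.57 (limma adjusted p = 0.0824).

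Against NVP the Camk4 groups did not overlap on the brightest probe: the highest AP5 array was at 1.73 and the lowest NVP array at 1.88. On the second probe they did overlap, with AP5 3 at 3.20 and NVP 3 at 3.12. The difference was -0.92 (SE 0.166; 1.89-fold lower with AP5; limma adjusted p = 0.00177), and within slide 2 the AP5 array differed from the mean of 3 NVP arrays by -1.07. Against Ro25 the AP5 difference was -0.54 and did not pass (limma adjusted p = 0.0932), with a value of -0.68 (limma adjusted p = 0.0115) where a gene was read as the mean of its probes. NVP lay above control by 0.29 (95% interval -0.053 to 0.64), and Ro25 differed from control by -0.085 (95% interval -0.43 to 0.26). The groups ran NVP, control, Ro25 and AP5 in order of mean, and every pair of neighbours overlapped.

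Camk1g encodes CaMKI gamma, a membrane-anchored calmodulin kinase that takes part in dendrite growth. Log2 ratios were 1.35, 1.73, 1.17, 1.37 and 1.63 on the AP5 arrays, 1.72, 1.98, 2.13, 1.84 and 1.74 on the NVP arrays, 2.22, 2.03, 1.63, 1.86 and 2.05 on the Ro25 arrays, and 1.59, 1.55, 1.54, 1.78 and 1.63 on the control arrays. The AP5 arrays spread widely around a low mean, and the NVP and Ro25 arrays lay mostly above control. AP5 differed from control by -0.17 (limma adjusted p = 0.503), NVP by 0.27 (unadjusted p = 0.0305 and adjusted p = 0.788 by limma) and Ro25 by 0.34 (unadjusted p = 0.00697 and adjusted p = 0.815 by limma). All 5 NVP and all 5 Ro25 arrays were above the control mean, but neither difference passed.

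Between antagonists, Camk1g was lower with AP5 than with NVP by a log2 difference of -0.43 (SE 0.114; 1.35-fold lower; limma adjusted p = 0.0271) and lower than with Ro25 by -0.51 (1.42-fold lower; limma adjusted p = 0.0138). The groups overlapped in both pairs. The NVP call was lost without AP5 1, AP5 3, AP5 4, NVP 2 or NVP 3, each left out alone (limma adjusted p of 0.0115 to 0.0873 over the 10 such fits), and the Ro25 call remained in all 10 (0.00414 to 0.0468). The NVP call was also lost with no background subtraction, the scanner's processed signals, the authors' deposited value table, the pan-neuronal marker mean as a covariate or only the 2 groups fitted (limma adjusted p of 0.0533 to 0.129). With the scanner's processed signals or only the 2 groups fitted, the Ro25 call was lost too (limma adjusted p of 0.0718 and 0.103). On the first scan day alone neither passed, with differences of -0.31 from NVP (limma adjusted p = 0.25) and -0.36 from Ro25 (limma adjusted p = 0.249).

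**Figure D2:**
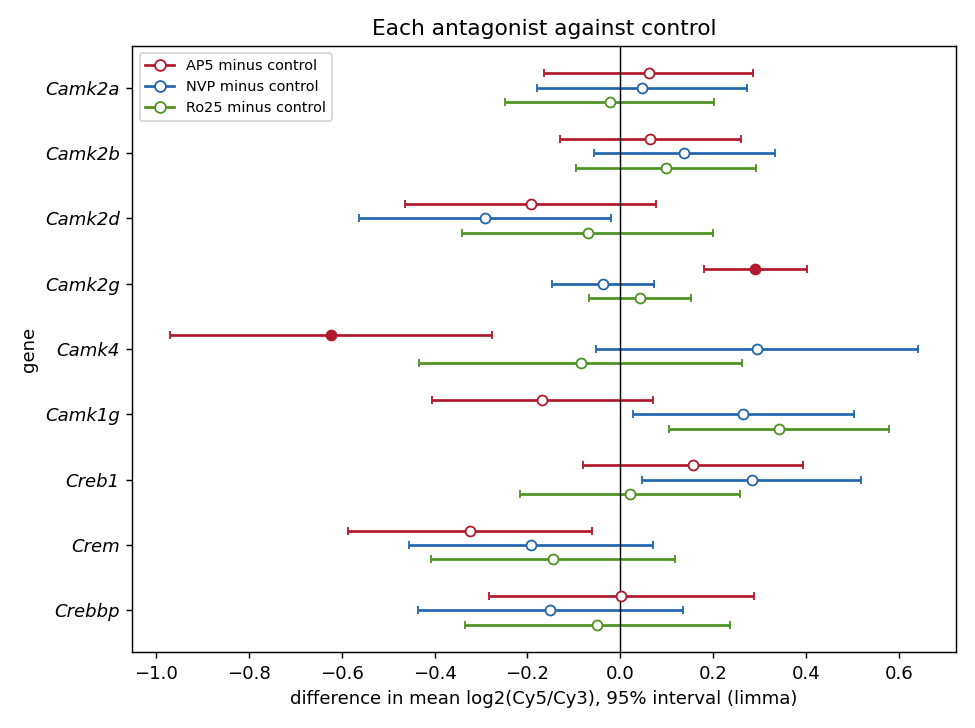
Difference in mean log2(Cy5/Cy3) from control for AP5, NVP and Ro25, with the 95% interval of the limma fit (5 arrays a group); filled points pass an adjusted p of 0.05. Camk2g (0.29) and Camk4 (-0.62) with AP5 are the filled points, and all NVP and Ro25 points are open.

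Over the whole set, 3 of 9 members were called between AP5 and NVP (Camk2g higher, Camk4 and Camk1g lower), beside 5.78% of all genes tested (2.69% higher and 3.09% lower). Between AP5 and Ro25, 2 of 9 were called (Camk2g higher, Camk1g lower), beside 3.1% of all genes (1.13% higher and 1.97% lower). With the slide block or median centring 0 of 9 were called in either comparison. The 3 antagonists were used at different doses, and the comparisons share samples: AP5 enters 3 of the 6 and control enters 3. For NVP against control, 0 of 9 members passed beside 0% of all genes. At an unadjusted p under 0.05, limma gave 3 members and 1137 genes. For Ro25 against control, 0 of 9 passed beside 0.0155% of genes, which is 3 genes; at an unadjusted p under 0.05 there were 1 member and 839 genes. NVP against Ro25 gave 0 of 9 members and 0% of genes, with 2 members and 1143 genes at an unadjusted p under 0.05.

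The 3 other CaMKII subunit genes did not pass in any comparison. Camk2a, the alpha subunit typical of forebrain excitatory neurons, had log2 ratios of 3.36 to 3.74 (median 3.48) with AP5, 3.16 to 3.85 (median 3.45) with NVP, 3.34 to 3.57 (median 3.43) with Ro25 and 3.29 to 3.62 (median 3.46) in control. Its AP5 difference from control was 0.062 (95% interval -0.16 to 0.29). A second Camk2a probe, above background on 9 of 20 arrays, gave -0.11. Camk2b, the actin-binding beta subunit, had ratios of 4.70 to 5.16 with AP5, 4.90 to 5.30 with NVP, 4.92 to 5.13 with Ro25 and 4.73 to 5.04 in control, and its AP5 difference was 0.065 (95% interval -0.13 to 0.26).

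Camk2d, the delta subunit, best known from heart, had group means below the reference RNA, with ratios of -0.82 to -0.37 with AP5, -0.94 to -0.33 with NVP, -0.72 to -0.29 with Ro25 and -0.77 to -0.08 in control. The differences from control were -0.19 with AP5 (95% interval -0.46 to 0.078), -0.29 with NVP (unadjusted p = 0.0362 and adjusted p = 0.822 by limma) and -0.07 with Ro25. Of its 5 probes 3 passed the filter; the remaining 2, designed from cDNA clones, were well above background in the sample channel on 0 of 20 arrays. The 3 that passed gave AP5 differences of -0.19, -0.057 and 0.053, so the probes did not share a direction.

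Creb1 encodes CREB itself. The log2 ratios were 1.12, 1.01, 1.02, 1.04 and 1.03 on the AP5 arrays, 1.08, 1.17, 1.19, 1.41 and 1.00 on the NVP arrays, 0.90, 1.23, 0.72, 0.66 and 1.03 on the Ro25 arrays, and 1.05, 0.73, 1.21, 0.83 and 0.61 on the control arrays. The AP5 arrays were tightly grouped inside the wide range of control, with SDs of 0.043 with AP5 and 0.243 in control. AP5 differed from control by 0.16 (95% interval -0.079 to 0.39) and NVP by 0.28 (unadjusted p = 0.0212 and adjusted p = 0.737 by limma). All 5 AP5 arrays and all 5 NVP arrays were above the control mean. Ro25 differed from control by 0.021.

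The Creb1 probe is printed 10 times on each array, which gives a measure of technical error within an array. After outlier spots were left out, 7 to 10 spots remained, and their SD was 0.0189 to 0.0686 on the AP5 arrays and 0.022 to 0.0878 on the control arrays. The spread between control arrays was therefore larger than the spread between spots of any one of them. The other 2 Creb1 probes gave AP5 differences of -0.055 and 0.12, and neither passed.

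Crem encodes the cAMP responsive element modulator, a relative of CREB whose transcripts yield both activators and the repressor ICER. Log2 ratios of the brightest probe were 1.51, 1.49, 1.73, 1.51 and 1.84 on the AP5 arrays, 1.63, 1.66, 1.69, 1.65 and 2.11 on the NVP arrays, 1.75, 1.61, 1.64, 2.05 and 1.93 on the Ro25 arrays, and 1.82, 2.06, 1.58, 1.93 and 2.31 on the control arrays. All 5 AP5 arrays lay below the control mean of 1.94 ± 0.273, with an AP5 mean of 1.62 ± 0.162 (SD, n = 5 each), and the groups overlapped. The AP5 difference was -0.32 (SE 0.126, unadjusted p = 0.0187), which did not pass after adjustment (limma adjusted p = 0.161). With slide as a fixed block its sign turned, to 0.44 (limma adjusted p = 0.416).

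Of 6 Crem probes 5 passed the filter, and all 5 were lower with AP5, by -0.40 to -0.27, with limma adjusted p values of 0.0637 to 0.298. These 5 probes lie within 1 kb of each other in the mm7 coordinates of the file headers, so they read the same end of the transcript and are not independent. They do not tell activator from repressor transcripts. The sixth probe, designed from a testis cDNA clone, was well above background on 2 of 5 AP5 arrays, 1 of 5 NVP arrays, 0 of 5 Ro25 arrays and 0 of 5 control arrays, and was not tested. The 5 probes were also lower with NVP (-0.38 to -0.19) and with Ro25 (-0.23 to -0.14), in comparisons that share the control arrays, and none of these passed.

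Crebbp encodes CBP, the acetyltransferase that phosphorylated CREB recruits. It had ratios of -0.32 to 0.072 with AP5, -0.52 to -0.025 with NVP, -0.48 to 0.28 with Ro25 and -0.39 to 0.24 in control. The AP5 difference from control was 0.0022 (95% interval -0.28 to 0.29), and the 3 probes gave 0.0022, 0.017 and 0.046. With NVP the brightest probe gave -0.15, whereas the other 2 gave 0.17 and 0.11, and none passed.

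**Figure D3:**
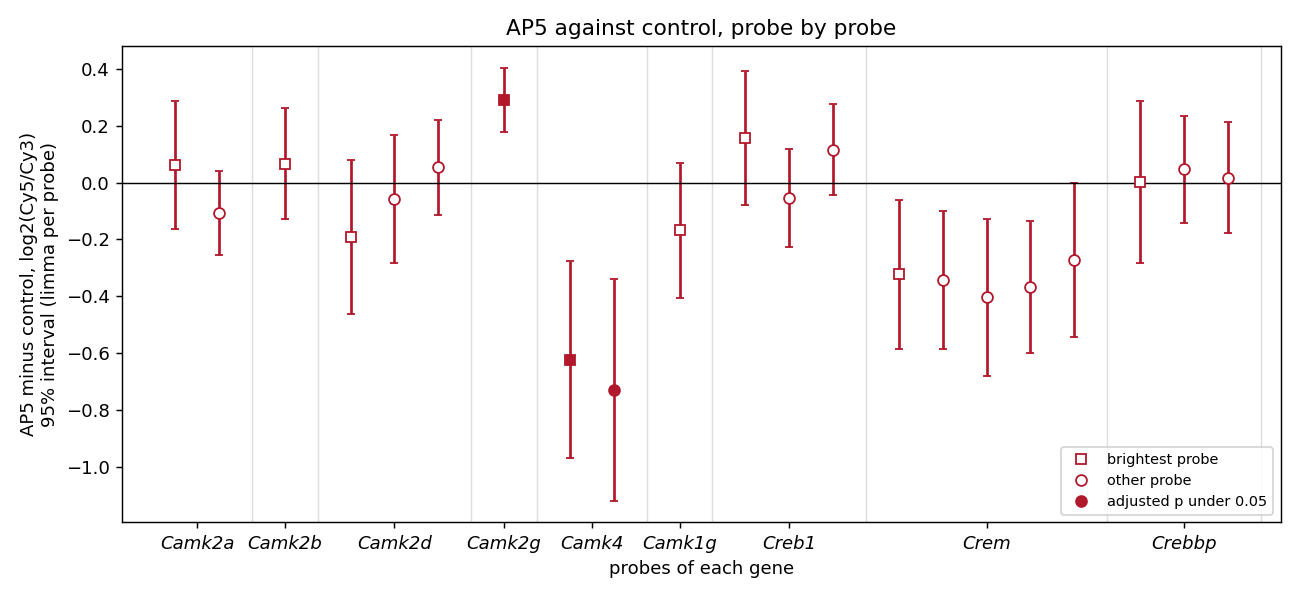
AP5 minus control on the log2 scale for each of the 21 probes that passed the filter, with 95% intervals from limma fitted per probe; squares mark the brightest probe of a gene and filled points pass an adjusted p of 0.05. Both Camk4 probes and the Camk2g probe are filled, and the 5 Crem probes lie between -0.40 and -0.27 without passing.

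The array files place the Camk2g probe at chr14:18391540-18391599 on the minus strand, the Camk2b probe at chr11:5921835-5921894 on the minus strand, the Camk1g probe at chr1:192899176-192899235 on the minus strand and the brightest Creb1 probe at chr1:64843383-64843442 on the plus strand, all in mm7. No annotation of that build was used, so exon or UTR positions are not given.

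The arrays also varied together within groups. After each gene's group mean was taken off, Camk4 and Crem correlated at r = -0.73 over the 20 arrays (Spearman rho -0.60), Creb1 and Crem at -0.67 (rho -0.52), and Camk4 and Creb1 at 0.69 (rho 0.61). On the 17 arrays of the first scan day these were -0.73, -0.65 and 0.71, and without the 2 arrays farthest from the median they were -0.72, -0.54 and 0.74. The points share arrays, slides and the culture's cell makeup, and 36 pairs of genes were examined. Crem followed the astrocyte marker mean at r = 0.61 within groups, and Camk4, Creb1 and Crebbp ran against it at -0.51, -0.51 and -0.56. Each gene was set against every marker list, and other lists gave values as large. These were Camk2b with pan-neuronal (0.88), Camk4 with oligodendrocyte (-0.51), and Crebbp (-0.56) and Camk2a (0.52) with fibroblast markers. With the astrocyte mean as a covariate, a fit chosen after seeing the data, Camk2g was at 0.29 (limma adjusted p = 0.0015), Camk4 at -0.61 (limma adjusted p = 0.0137) and Crem at -0.34 (limma adjusted p = 0.0545).

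**Figure D4:**
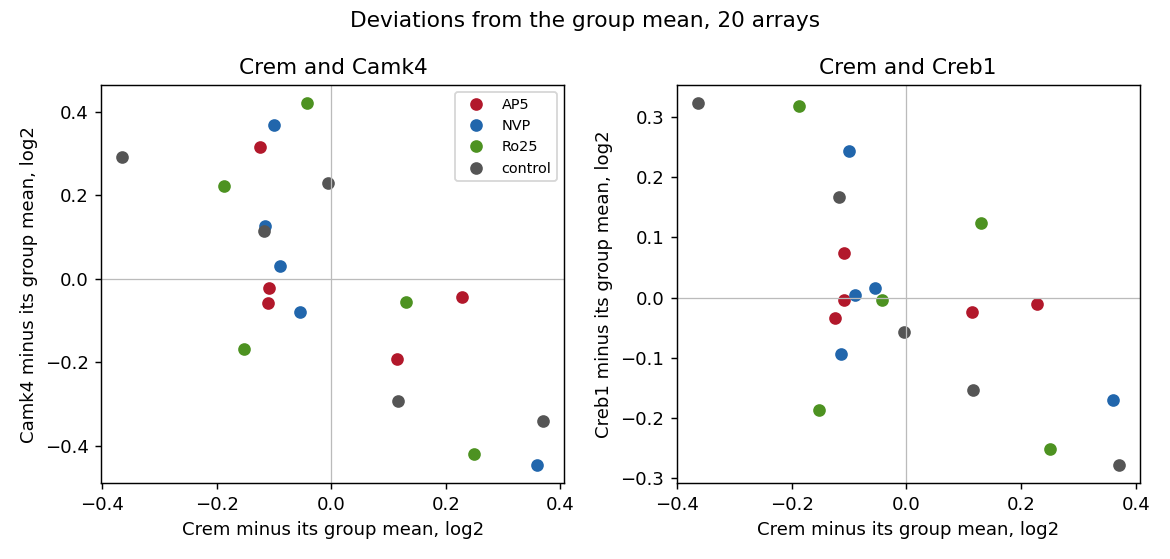
Each array's deviation from its group mean on the log2 scale, for Crem against Camk4 (left) and Crem against Creb1 (right), with 20 arrays coloured by group. Arrays high in Crem are low in Camk4 (r = -0.73) and in Creb1 (r = -0.67).

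Over the 20 arrays, the genes whose ratios were most like each member's were picked by Pearson correlation. For Camk4 they were Pam (r = 0.96) and Fbxw7 (0.95), and for Camk2g Osbpl5 (0.92). The Camk2g correlation with Osbpl5 was 0.51 once group means were removed, and those of Camk4 were 0.93 with Pam and 0.91 with Fbxw7. For Creb1 they were Zfp292 (0.97) and Tnrc18 (0.95), for Crem Arpp19 (0.91), and for Crebbp Huwe1 (0.93) and Rc3h1 (0.93). Camk2b ran with Plppr4 (0.94) and Prkar1b (0.94), and also with the pan-neuronal marker mean (0.87). For Camk2a they were Rgs3 (0.85) and Prh1 (0.85), for Camk2d Ssh1 (0.89) and Utp3 (0.88), and for Camk1g Gabrr1 (0.79) and Endov (0.79).

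Next to the members, the other CaM kinases and their regulators were read from a list of 13 genes. With AP5, 2 rose, 2 fell and 9 did not pass, beside 2.53% of all genes higher and 3.59% lower, with a median difference of -0.018 beside -0.012 over all genes. Camkk2, the kinase that activates CaMKIV and CaMKI, fell: its log2 ratios ranged from 0.64 to 0.75 with AP5 and from 1.05 to 1.53 in control, a difference of -0.59 (SE 0.0833, limma adjusted p = 0.000125). The Camkk2 groups did not overlap, and NVP and Ro25 differed from control by 0.02 and -0.0064. Its paralog Camkk1 was at 0.24 and did not pass (limma adjusted p = 0.138).

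Camk1, a kinase that the CaMKKs also activate, fell by 0.33 (limma adjusted p = 0.0485), a call that was lost in 8 of 10 fits without 1 array and kept only without AP5 2 or control 3. Dapk1, the death-associated calmodulin kinase, rose by 0.72 (limma adjusted p = 0.0164), a call lost without AP5 4 or control 5. Dapk1 was also at 0.54 with NVP and 0.52 with Ro25 against the same control arrays, neither passing, and AP5 differed from NVP by 0.17 (limma adjusted p = 0.696). Ppm1f, a phosphatase that removes activating phosphates from CaM kinases, rose by 0.25 (limma adjusted p = 0.0056), with ratios of 0.63 to 0.78 with AP5 and 0.40 to 0.48 in control. With slide as a fixed block Camkk2 was at -1.09 and kept its call. Camk1 turned to 0.078, Dapk1 turned to -0.20 and Ppm1f was at 0.13, and these lost theirs. All of these values rest on 1 control array, control 3, so kept and lost calls alike depend on it.

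Of 13 genes for calmodulin and proteins that bind it, 1 fell with AP5 and 0 rose, beside 6.12% of all genes called. Calm2, one of several genes that encode the same calmodulin protein, fell by 0.32 (limma adjusted p = 0.0139), with ratios of 2.57 to 2.77 with AP5 and 2.93 to 3.16 in control. Calm2 did not pass with slide as a fixed block (-0.066, limma adjusted p = 0.879) or on the first scan day alone (-0.31, limma adjusted p = 0.0663). Ppp3ca and Ppp3cb, catalytic subunits of calcineurin, were at 0.40 and 0.17, the growth-cone protein Gap43 at -0.35 and the calcineurin regulator Rcan2 at -0.15, none of them passing (limma adjusted p of 0.133 to 0.443). Of the CREB family and its coactivators, 11 of 12 genes were tested and 0 passed limma with AP5, beside 6.12% of all genes. At an unadjusted limma p under 0.05 there was 1, beside 3444 of 19345 genes. So few genes cannot be set apart from these shares. The 5 with the lowest adjusted p were Crebl2 (0.33), Creb3l1 (-0.18), the CREB coactivator Crtc2 (-0.17), Creb3 (-0.13) and Crebzf (0.17), at limma adjusted p values of 0.109 to 0.396.

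Among 22 genes on the list of kinases and phosphatases upstream of CREB, 1 rose and 1 fell with AP5, beside 6.12% of all genes called. That list also holds adenylyl cyclases, phosphodiesterases and a scaffold gene, and not all of its genes act on CREB itself. Rps6ka5 encodes MSK1, a nuclear kinase that phosphorylates CREB at the same serine as CaMKIV. It had ratios of 0.44 to 1.13 with AP5 and -0.37 to 0.12 in control, and rose by 0.92 (SE 0.125, limma adjusted p = 8.54e-05). With slide as a fixed block the Rps6ka5 value was 0.25 (limma adjusted p = 0.596). Ppp1ca, a catalytic subunit of the phosphatase that dephosphorylates CREB, fell by 0.24 (limma adjusted p = 0.0367), a call that was lost without AP5 1, AP5 3, AP5 4, control 2, control 4 or control 5. The protein kinase A subunit Prkar2b (-0.19) and the ribosomal S6 kinase Rps6ka1 (0.15) did not pass.

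**Figure D5:**
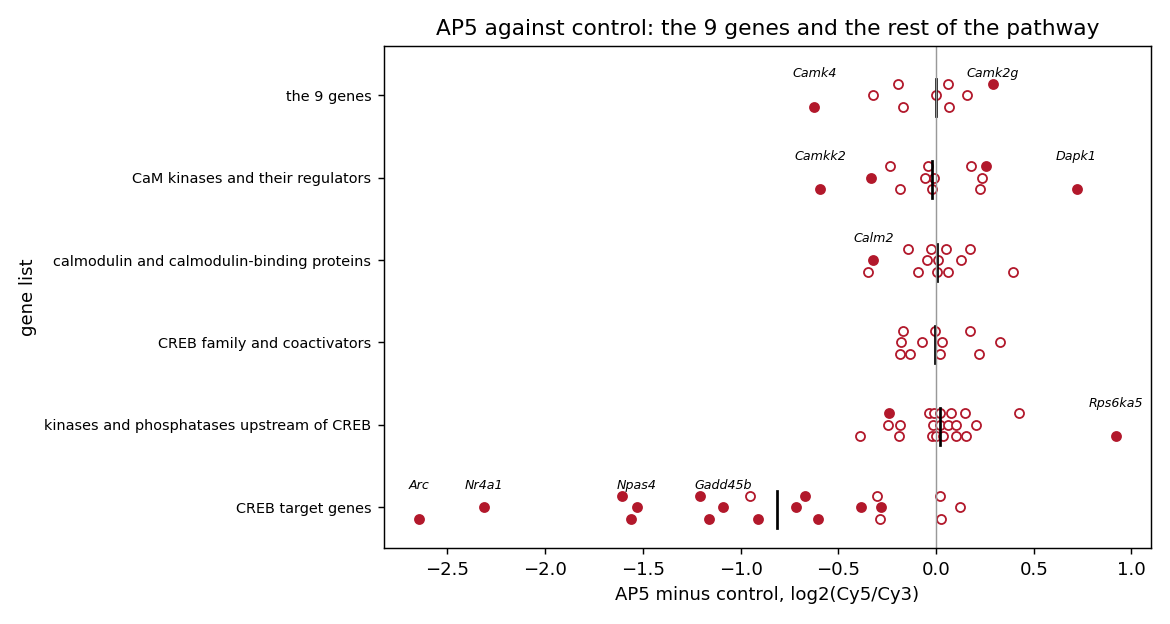
AP5 minus control on the log2 scale for the 9 genes and for each gene of 5 pathway lists (points, staggered in height for legibility), with the list median as a black bar; filled points pass a limma adjusted p of 0.05. The CREB target genes lie lowest, with a median of -0.81, and the other lists are centred near 0. The lists were drawn up with earlier results of these data known.

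The known transcriptional targets of CREB formed the last list. Of 20 genes, 14 fell with AP5, beside 3.59% of all genes, and 0 rose. The list was drawn up with earlier results of these data known, so this share is no independent result. The median was -0.81 beside -0.012 over all genes. With slide as a fixed block, which rests on 1 control array, the median was -0.74 and most of the 14 calls were lost. Arc, which encodes a synaptic protein, had log2 ratios of 0.10 to 0.95 with AP5 and 2.92 to 3.05 in control, a difference of -2.65 (limma adjusted p = 2.71e-11). Nr4a1, a nuclear receptor induced by activity, had ratios of -2.96 to -2.49 with AP5 and -0.66 to 0.044 in control, a difference of -2.31 (limma adjusted p = 1.5e-10). Bdnf, the neurotrophin gene, was at -1.61 and Gadd45b, a stress and DNA demethylation gene, at -1.09 (limma adjusted p of 5.59e-08 and 2.25e-07). Fos was among the 6 target genes that did not pass.

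Npas4 encodes a transcription factor induced by neuronal activity. Its probe was well above background on 0 of 5 AP5 arrays and on 5 of 5 control arrays, so the AP5 level is only an upper limit. The log2 ratios were -0.21 to 0.14 with AP5 and 1.38 to 1.67 in control (limma adjusted p = 3.82e-08). Npas4 was also the only target gene called with Ro25, at -0.68 (limma adjusted p = 0.0473). The Npas4 ratios were 0.54 to 1.03 with Ro25, all below the control range. That call was lost in 9 of 10 fits that left out 1 Ro25 or control array, all but the one without Ro25 2, with limma adjusted p values of 0.0452 to 0.21. With NVP 0 of 20 target genes passed limma, with 6 at an unadjusted p under 0.05, beside 1137 of 19345 genes. With Ro25, 12 of 20 were at an unadjusted limma p under 0.05, beside 839 of 19345 genes. Both comparisons use the same control arrays. The medians were -0.15 with NVP and -0.30 with Ro25.

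CREB binds the letters TGACGTCA, or either TGACG or CGTCA alone, which are 1 core read on opposite strands and overlap within the longer palindrome. Promoters of 300 bases, from 250 before to 50 after each start, were searched for these letters in RefSeq sequences of GRCm38.p6. Of the 9 members, 5 had a promoter entry (Camk2b, Camk2d, Camk1g, Creb1 and Crebbp), and 0 of these 5 held either core, beside 23% of 27025 genes. So few genes cannot be set apart from that share. Camk2g and Camk4, the members called with AP5 against control, had no entry and were not searched. Of the 20 CREB target genes, 16 had an entry and 14 of them held a core (87.5%), beside 23% of 27025 genes, and 4 held the whole palindrome (25%: Dusp1, Pcsk1, Sst and Btg2), beside 2.03% of genes. The target list was drawn up from genes known for CREB binding, so its share is no independent result.

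The 250 bases before the start of Creb1 are shown as a member without these letters, and those of Nr4a1 as a target gene with a large AP5 difference that holds the core 4 times; capitals mark TGACG or CGTCA. Creb1 lies at chr1:64532554-64532803 on the plus strand and Nr4a1 at chr15:101266596-101266845 on the plus strand.
Creb1: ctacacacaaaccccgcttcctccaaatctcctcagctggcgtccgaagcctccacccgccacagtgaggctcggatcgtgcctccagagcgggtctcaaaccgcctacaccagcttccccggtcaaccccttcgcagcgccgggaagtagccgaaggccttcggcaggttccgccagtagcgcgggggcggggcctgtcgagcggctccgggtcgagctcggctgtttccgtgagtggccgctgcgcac
Nr4a1: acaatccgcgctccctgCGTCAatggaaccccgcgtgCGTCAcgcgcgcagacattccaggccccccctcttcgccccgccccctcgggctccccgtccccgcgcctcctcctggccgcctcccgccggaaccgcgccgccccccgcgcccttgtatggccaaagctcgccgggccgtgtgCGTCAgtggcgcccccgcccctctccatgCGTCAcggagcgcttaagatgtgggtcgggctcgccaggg

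Shorter windows show how the letters sit in other target genes that fell with AP5: Npas4, with both orientations, Bdnf, with 1 core in 1 of its 7 promoters, and Dusp1, Pcsk1 and Btg2, with the whole palindrome. They lie at chr19:4990134-4990162 (minus strand), chr2:109692389-109692417 (plus), chr17:26508599-26508627 (minus), chr13:75089767-75089795 (plus) and chr1:134079305-134079333 (minus).
Npas4: tctcccgttcgaCGTCAcgggaTGACGtc
Bdnf: tatgacagctcaCGTCAaggcagcgtgga
Dusp1: cggtagggcgggTGACGTCAccgcccggt
Pcsk1: tccaggtagatcTGACGTCAagagatggc
Btg2: tgttcccaataaTGACGTCAgtgagcgat
Dusp1 was at -0.71, Pcsk1 at -1.21 and Btg2 at -0.28 with AP5 against control (limma adjusted p of 8.42e-05, 0.00086 and 0.00471). Sst, which holds the same palindrome, was at 0.028 and did not pass (limma adjusted p = 0.915). A match is a description of letters, and no binding was measured.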

How the data were processed

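RNA of 20 samples from cultured hippocampal neurons was measured on 2-colour Agilent arrays, sample in Cy5 and universal mouse reference in Cy3, with no dye swap. The authors deposited scanner intensity values from Agilent Feature Extraction, version 10.7.3.1 per the file headers and 11.0 per the submitters' processing notes. The authors also deposited a value table whose numbers ran with the log2 ratios computed here (slopes of 0.992 to 1.12), so scale and direction are known from that comparison. Its column medians were 0.0302 to 0.0626, and its centring is unknown.

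From 45018 spots, mean and background intensities were corrected with normexp (offset 50) and loess within each array (limma 3.58.1, R 4.3.3). Control spots and outlier spots were left out, spots of a probe were averaged, and probes well above background in Cy5 on at least 5 arrays were kept (28498 of 41174). A gene was read from its brightest probe, giving 19345 genes. One limma model held the 4 group means, with 6 contrasts and Benjamini-Hochberg adjustment at 0.05. Median Cy5 intensities were 142 to 185 per array, and the number of arrays limits the precision. Coordinates of probes are mm7, per the file headers; promoters are RefSeq GRCm38.p6. The model was tested on simulated data for AP5 against control over 19345 genes: 78 of 100 genes changed 1.5-fold and 95 of 100 changed 2-fold were recovered. Of 181 calls, 8 were false. The simulated noise was independent between genes and arrays, with no slide or scan-day part, and no change under 1.5-fold was tried. Recovery in the real data can therefore differ.

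Groups came from the sample titles. The members and gene lists were chosen with earlier results of these data known. Named genes are the 9 members with every probe, the up to 5 genes of each other pathway list with the lowest adjusted p for AP5 against control plus any list gene passing with NVP or Ro25, and for each member the 2 other genes with the highest Pearson correlation over 20 arrays; Dusp1, Pcsk1, Btg2 and Sst were named for their promoter letters after their values were seen, as were genes of the marker lists. Some genes that the rule names are not reported here. The lists were CaM kinases and regulators, calmodulin and its binding proteins, the CREB family, kinases and phosphatases upstream of CREB, CREB targets, and markers of pan-neuronal, excitatory, inhibitory, astrocyte, microglia, oligodendrocyte and fibroblast identity. Of the marker genes tested with AP5, Celf4 (0.67), Wfs1 (0.48) and Csf1r (0.46) were called higher and Col1a2 (-0.25) lower, beside 6.12% of all genes called. Where 1 array was left out, the Wfs1 call was kept only without control 5 and the Col1a2 call only without AP5 5. The Celf4 call was lost without AP5 3, AP5 4, control 2 or control 5. With slide as a fixed block, which rests on control 3, Celf4 turned to -0.31 and Csf1r to -0.047. Of the 16 pan-neuronal markers, 10 had a negative difference. Of the excitatory, inhibitory and oligodendrocyte markers 9 each were tested, and of the fibroblast markers 6. Alternatives changed the background correction, normalization, probe filter, probe rule, slide and scan-day terms, array weights and replicates.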

Additional observations from a re-analysis of the deposited data

Results flagged for a closer look

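Over the 36 sets of 5 arrays formed by 9 genes and 4 groups, 2 held an array far from the rest, judged by its gap to the nearest array divided by the whole range, with 0.71 as the limit. Chance gives about 1 in 20. Crem on array NVP 5 was at 2.11, with the nearest NVP array at 1.69 and a gap ratio of 0.874. Creb1 on array AP5 1 was at 1.12, with the nearest AP5 array at 1.04 and a gap ratio of 0.719. AP5 1 is also the array with the lowest neuronal and astrocyte marker means, 4.05 and 3.00, and the part of these in its Creb1 value was not tested.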

How the results depend on the processing

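With slide as a fixed block, 0 members were called for AP5 against control, NVP or Ro25, and 41 genes were called for AP5 against control, beside 1183 without the block. AP5 and control arrays shared no slide, and control 3 was the only control array on a slide with another group. Against control, the block therefore rests on that 1 array. Centring each array on its median in place of loess also gave 0 in all 3 comparisons, with 165 genes for AP5 against control, and moved the median of all genes to 0.0609. On the first scan day alone 1 member was called against control and 0 against Ro25. The scanner's own processed signals gave 1 against control and 1 against Ro25, and fitting only the 2 groups compared gave 0 against Ro25 and 775 genes against control. Leaving out 1 array gave 1 to 2 members against control, 2 to 3 against NVP and 2 to 3 against Ro25. Higher calls made up 489 of 1183 genes for AP5 against control, 800 of 1535 with processed signals. For NVP or Ro25 against control, and NVP against Ro25, 0 members were called under every alternative run. The cause was not tested.

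Among the members, signs turned only in differences that did not pass. For AP5 against control these were Camk2b (-0.31), Creb1 (-0.37), Crem (0.44) and Crebbp (-0.80) with the slide block, Camk2a with the mean of all probes (-0.022), and Crebbp on the first day (-0.11), with array weights (-0.080) and without 1 array (-0.060 to 0.097). For NVP against control they were Camk2b (-0.21), Camk2g (0.0097), Camk4 (-0.038), Creb1 (-0.091) and Crem (0.40) with the slide block, Crebbp in the authors' table (0.19) and with the mean of probes (0.043), and Camk2a with the mean of probes (-0.014) and without 1 array (-0.038 to 0.13). For Ro25 against control they were Camk2a (0.017), Camk2b (-0.026), Creb1 (-0.35) and Crem (0.33) with the slide block, Camk2a with median centring (0.00991) and array weights (0.020), Crebbp in the authors' table (0.10), Camk4 (0.0029) and Crebbp (0.040) with the mean of probes, and Creb1 on the first day (-0.058) and with array weights (-0.030). Without 1 array, Ro25 against control ranged from -0.066 to 0.017 for Camk2a, -0.17 to 0.0014 for Camk2d, -0.19 to 0.020 for Camk4, -0.058 to 0.10 for Creb1 and -0.17 to 0.045 for Crebbp.

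The replicate block called 2 members and 1238 genes for AP5 against control. Same-numbered arrays deviated together in at most 3 of 5 pairs (correlations of -0.447 to 0.763). Whether they share a preparation cannot be told from 5 pairs per comparison, and the sources do not say. Requiring signal on all 20 arrays removed Npas4. Aquantile leaves ratios unchanged by construction.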
